A study of Mus musculus with 6 samples.

Results

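The seed family of miR-130 and miR-301 was examined in small RNA libraries from mouse brain cortex as 4 miRNAs, mmu-miR-130a-3p, mmu-miR-130b-3p, mmu-miR-301a-3p and mmu-miR-301b-3p, chosen by name from the 1182 features of the count table. The libraries came from the cortex of adult, untreated male mice of matched age, 3 labelled fmr1 KO and 3 labelled fmr1 WT. The labels give neither the kind of Fmr1 mutation nor the strain, and they tie no library to a separate animal, so p-values measure only the spread between these libraries, which may be technical. Small RNA holds no measure of Fmr1 mRNA, so the genotype labels could not be checked against the gene itself.

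MicroRNAs are cut from hairpin precursors. Each hairpin yields a 5p and a 3p product, and one of the pair, the guide, is usually kept in the Argonaute complex and steers it to messenger RNAs that pair with its seed, bases 2 to 8. In this family the 3p products share a seed and are the strands usually described as guides. The family is known for repression of Pparg, a nuclear receptor of fat cell differentiation, and miR-130b has been reported to target Fmr1 mRNA in neural progenitors. FMRP, the product of Fmr1, binds RNA and restrains translation at synapses.

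The mature sequences are shown because a single seed defines the family while the rest of each miRNA differs. They are from RefSeq (GRCm38.p6), 5′ to 3′, with bases 2 to 8 in capitals, and miR-301b-3p had no entry there.
miR-130a-3p: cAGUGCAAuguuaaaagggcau
miR-130b-3p: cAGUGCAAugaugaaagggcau
miR-301a-3p: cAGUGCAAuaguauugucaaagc
miR-130a-3p and miR-130b-3p were identical at 20 of 22 positions, so reads could be assigned to the wrong one of this pair. The RefSeq hairpin of miR-301b holds a stretch almost the same as miR-301a-3p. Reads of miR-301a-3p and miR-301b-3p could therefore be exchanged in the same way. miR-301a-3p matched miR-130a-3p at 12 of 22 positions when both were aligned from the first base. RefSeq held 7 mature miRNAs with this seed, 3 of them in the count table, and miR-130c, miR-721, miR-6341 and miR-6389 were not analysed here.

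The 5p products of the same hairpins carry other seeds, and they are shown because most reads of 3 hairpins came from them.
miR-130a-5p: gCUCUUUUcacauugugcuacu
miR-130b-5p: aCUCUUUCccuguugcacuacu
miR-301a-5p: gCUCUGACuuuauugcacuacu
miR-301b-5p: gCUCUGACuagguugcacuacu
The 2 miR-301 5p products shared 1 seed and were identical at 19 of 22 positions. Those of miR-130a and miR-130b each had a seed of their own.

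The 4 hairpins lie at 3 loci of GRCm38. The hairpin of miR-130a is on chromosome 2 (84741115 to 84741178, minus strand), outside other genes annotated in GENCODE M21. That of miR-301a is on chromosome 11 (87113004 to 87113089, plus strand), in an intron of Ska2, a gene of the spindle and kinetochore complex, on the same strand. Those of miR-130b (17124061 to 17124142) and miR-301b (17124400 to 17124496) stand 257 bases apart on the minus strand of chromosome 16, both in introns of the protein-coding gene 2610318N02Rik and on its strand. The precursors of miR-130a and miR-130b are shown because their products were read in opposite proportions, with the mature 5p and 3p products in capitals.
miR-130a hairpin: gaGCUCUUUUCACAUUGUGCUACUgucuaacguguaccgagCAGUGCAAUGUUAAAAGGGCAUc
miR-130b hairpin: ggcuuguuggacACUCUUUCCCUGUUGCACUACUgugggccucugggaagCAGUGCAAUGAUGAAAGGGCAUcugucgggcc

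The 3′ UTR of mouse Fmr1 held 2 matches to the family's 3p seed. All 6 annotated coding transcripts ending in a complete stop codon have a 3′ UTR of 2288 bases, which was searched on its sense strand for TTGCACT, the reverse complement of the seed, written as DNA. The matches began 755 and 2267 bases after the stop codon and are in capitals.
Fmr1 site at 755: tttttgttttgTTGCACTgaagtatg
Fmr1 site at 2267: ttattaaaaagTTGCACTtatgaaaa
Both matches cover the whole seed, and neither was followed by an A. Pairing outside the seed was not examined. Of 4478 genes with a 3′ UTR at least this long, 16.0% held the motif in their first 2288 bases and 2.08% held 2 or more copies. Matching motifs of the 5p products were AAAAGAG for miR-130a-5p, which occurred 1 time, and GAAAGAG for miR-130b-5p and GTCAGAG for both miR-301 5p products, which occurred 0 times. In windows of that length these 3 motifs were held by 25.1%, 25.2% and 19.4% of genes. A match is a description of letters and not a measure of binding.

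**Figure D1:**
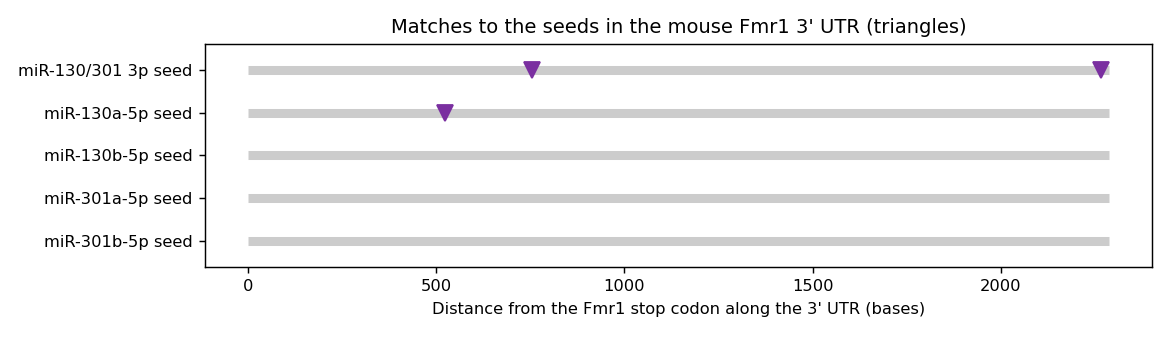
Position of seed matches (triangles) along the 2288 bases of the mouse Fmr1 3′ UTR, in bases from the stop codon, with 1 row for the shared 3p seed and 1 for each 5p product. The 3p seed has matches at 755 and 2267, miR-130a-5p has 1 at 525, and the other rows have none.

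The libraries held 11182888 to 15733876 reads of miRNAs. In all of them neuronal miRNAs were abundant: the 7 on a list summed to between 106034 and 126484 CPM (reads for each 1000000 of the TMM-scaled library), against 15.7 to 970.1 CPM for the 5 miR-200 family members of epithelium and olfactory neurons. Most of the neuronal sum was miR-128-3p, which averaged 97503 CPM in knockout and 104439 CPM in wild type. KO libraries spread more than WT libraries, with a median SD of log2 CPM of 0.41 in knockout and 0.14 in wild type. KO replicate 3 stood apart in its choroid plexus miRNAs, which summed to 2112 CPM there and to between 970.2 and 1045 CPM in the other 5 libraries.

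The family's 3p products were scarce in cortex. Their summed level was 2.46, 3.36 and 5.11 CPM in the knockout libraries and 3.61, 4.20 and 4.14 CPM in the wild-type libraries, or 3.64 ± 1.35 CPM in knockout and 3.98 ± 0.33 CPM in wild type (SD, n = 3 each). The highest and the lowest sum were both in KO libraries. The difference of KO minus WT was -0.34 CPM, and -1.07 CPM without KO replicate 3 or 0.26 CPM without KO replicate 1. By mean share of reads, miR-130a-3p ranked 419, miR-130b-3p 548, miR-301a-3p 589 and miR-301b-3p 733 of 1182 features. In bulk tissue, fewer cells that make a miRNA and less of it per cell cannot be told apart.

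miR-130a-3p was the most abundant member. It had 23, 27 and 44 reads in the knockout libraries and 30, 38 and 48 in the wild-type libraries, which is 1.57, 2.27 and 3.63 CPM in knockout and 1.97, 2.80 and 3.16 CPM in wild type. The groups overlapped, and KO replicate 3 was the highest library. A count of 23 has an exact 95% Poisson interval of 14.6 to 34.5 reads, and one of 48 an interval of 35.4 to 63.6 reads. Such intervals cover counting error only, since reads without molecular identifiers are not separate molecules.

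miR-130b-3p, the member reported to target Fmr1, had 10, 3 and 12 reads in the knockout libraries and 13, 9 and 4 in the wild-type libraries. This is 0.68, 0.25 and 0.99 CPM in knockout and 0.85, 0.66 and 0.26 CPM in wild type. Each genotype held a library with very few reads, KO replicate 2 and WT replicate 3. The intervals of these counts were wide, for example 0.62 to 8.77 reads for the count of 3 and 6.92 to 22.2 reads for the count of 13.

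miR-301a-3p had 1, 6 and 6 reads in knockout and 9, 10 and 6 in wild type. It was lowest in knockout replicate 1, at 0.068 CPM, and highest in wild type replicate 2, at 0.74 CPM. miR-301b-3p, processed from the hairpin beside that of miR-130b, had 2, 4 and 0 reads in knockout and 3, 0 and 5 in wild type. It was read in 4 of 6 libraries, and the 0 reads of KO replicate 3 and WT replicate 2 allow, at 3 reads, levels of 0.27 and 0.23 reads for each 1000000 of the library, while the upper limit of the exact two-sided 95% Poisson interval is 3.69 reads, or 0.33 and 0.28. At this depth no difference of either miR-301 3p product between single libraries can be read.

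**Figure D2:**
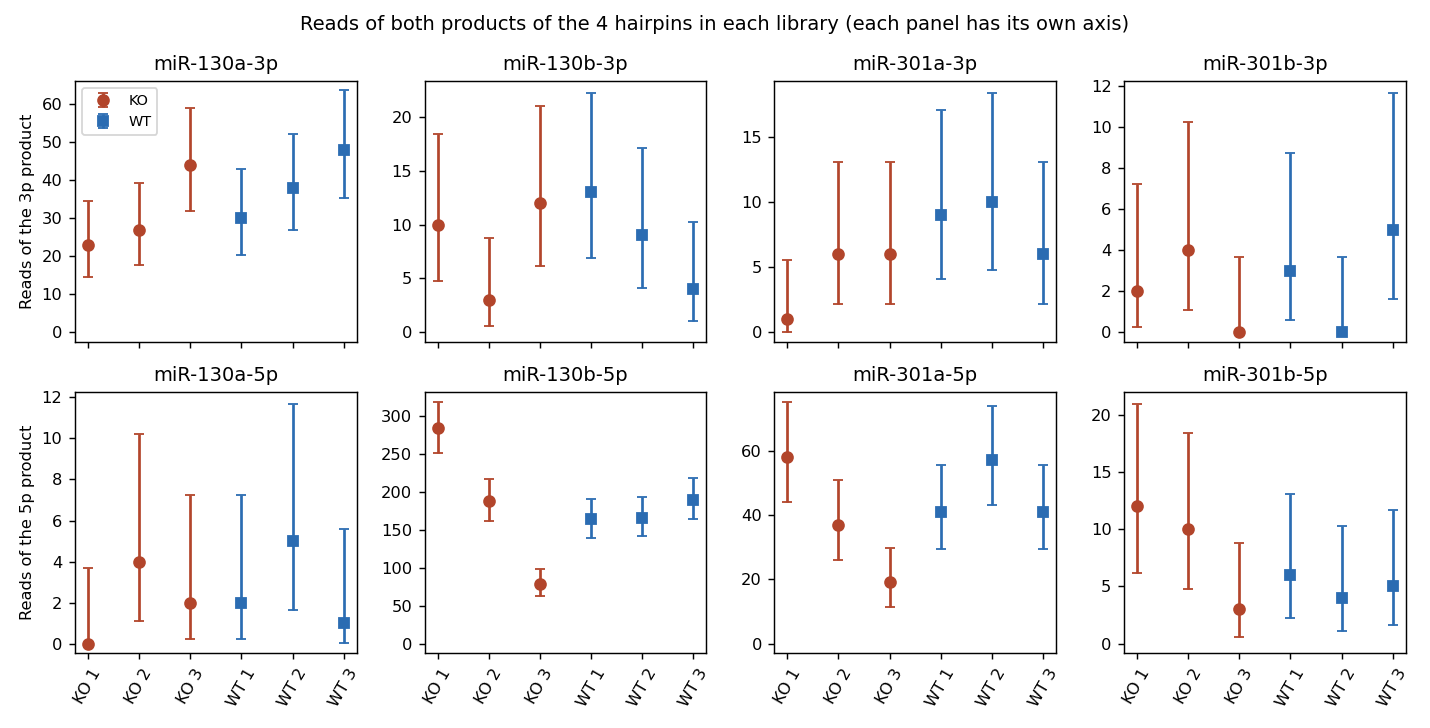
Reads of the 3p products (upper row) and the 5p products (lower row) of each hairpin in every library, KO as circles and WT as squares, with exact 95% Poisson intervals as bars and a separate linear axis for each panel. miR-130b-5p reaches 284 reads in knockout replicate 1 and 79 in knockout replicate 3, while miR-130b-3p has between 3 and 13 reads.

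Across the 6 libraries the members ranked miR-130a-3p, miR-130b-3p, miR-301a-3p and miR-301b-3p. All are RNAs of 22 or 23 bases where a sequence was at hand, so levels were compared as reads without a length correction. miR-130a-3p exceeded miR-130b-3p in 6 of 6 libraries, with a mean log2 ratio of reads of 2.10 ± 0.93 (SD, n = 6, with 0.5 reads added to each count). The exact two-sided sign-flip permutation p was 0.03125, the smallest it can give with 6 libraries, and 0.09375 when adjusted over the 3 neighbouring pairs. miR-130b-3p exceeded miR-301a-3p in 3 of 6 libraries (mean log2 ratio 0.45 ± 1.34, exact permutation adjusted p = 0.5625), and the ratio was -0.0235 without KO replicate 1. miR-301a-3p exceeded miR-301b-3p in 5 of 6 libraries (1.59 ± 2.03, exact permutation adjusted p = 0.1875). No neighbouring pair passed after adjustment. Within the lower 3 members, the neighbouring pairs did not differ beyond their spread, on few reads. miR-130b-3p was not tested against miR-301b-3p. Ligation and amplification favour some sequences over others, so these ratios are of reads.

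The arm that was read more differed between the hairpins. For miR-130a the 3p product took 93.8% of the 224 reads of both arms, with 210 reads against 14. For the other 3 hairpins most reads were 5p: the 3p share was 4.55% for miR-130b (51 against 1071 reads), 13.1% for miR-301a (38 against 253) and 25.9% for miR-301b (14 against 40). The closely related hairpins of miR-130a and miR-130b therefore had opposite majorities of the reads assigned to them. Their 3p products match at 20 of 22 positions, so the 3p majority of miR-130a depends on how reads were assigned. Ligation and amplification may also favour 1 arm over the other, so these shares are of reads.

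These majorities held in single libraries for 3 of the hairpins. For miR-130a the 3p share was 100%, 87.1% and 95.7% in knockout and 93.8%, 88.4% and 98.0% in wild type, and the lowest exact 95% binomial limit of any library was 70.2%. For miR-130b it was 3.40%, 1.57% and 13.2% in knockout and 7.34%, 5.14% and 2.06% in wild type, and the highest limit of any library was 21.9%. KO replicate 3 was the highest library, with 12 3p reads among 91.

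The 3p share of miR-301a was 1.69%, 14.0% and 24.0% in knockout and 18.0%, 14.9% and 12.8% in wild type, and no upper limit passed 45.1%. For miR-301b it was 14.3%, 28.6% and 0% in knockout and 33.3%, 0% and 50% in wild type, on 3 to 14 reads a library. Its limits reached 81.3%, so at this depth its majority arm is not resolved in most single libraries.

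**Figure D3:**
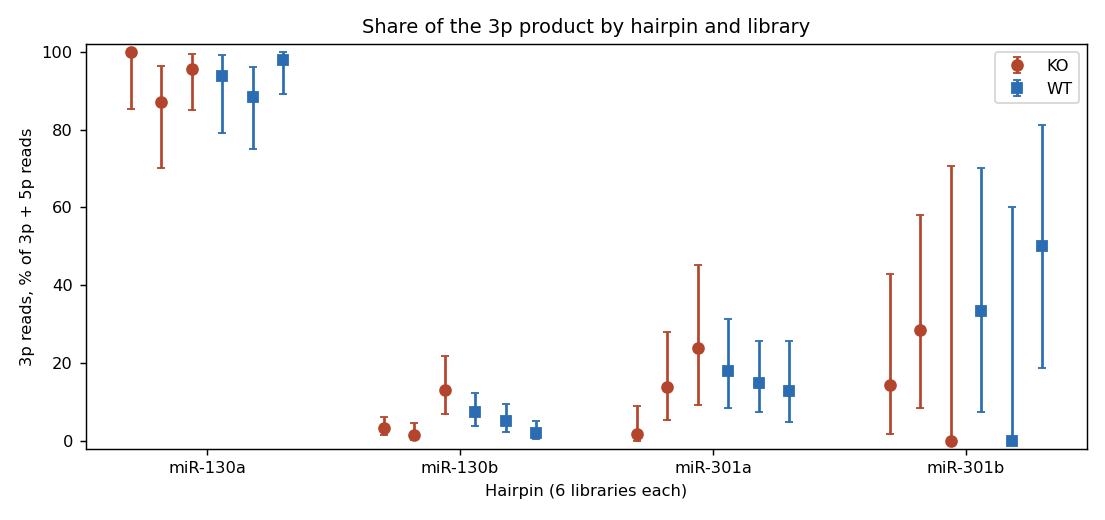
Share of 3p reads among the reads of both arms, in percent, for each hairpin and library, with exact 95% binomial intervals as bars, KO as circles and WT as squares. All 6 libraries lie at 87.1% or above for miR-130a and at 13.2% or below for miR-130b.

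Between genotypes the 3p shares did not separate. They were 94.2% ± 6.56 in knockout and 93.4% ± 4.81 in wild type for miR-130a, 6.05% ± 6.25 and 4.85% ± 2.65 for miR-130b, 13.2% ± 11.2 and 15.2% ± 2.63 for miR-301a, and 14.3% ± 14.3 and 27.8% ± 25.5 for miR-301b (SD, n = 3 each). By exact permutation the two-sided p-values were 0.8, 0.9, 0.8 and 0.5, each 0.9 when adjusted over the 4 hairpins, where 0.1 is the smallest p that 3 against 3 libraries allow. The sign of the difference turned for miR-130a without KO replicate 1 (-1.99 percentage points) or WT replicate 2 (-1.60), for miR-130b without KO replicate 3 (-2.36) or WT replicate 3 (-0.19), and for miR-301a without KO replicate 1 (3.75). For miR-301b the difference of -13.5 percentage points kept its sign but was -20.6 without KO replicate 2, -6.35 without KO replicate 3, -27.4 without WT replicate 2 and -2.38 without WT replicate 3.

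Set beside the other hairpins of the table, the family covers most of the range of arm use. Of 239 other hairpins with both arms listed and at least 100 reads in all, 86 had a 3p share of at most 10%, 78 had one of at least 90% and 75 lay between, with a median of 45.5%. The share of miR-130b falls in the first of these groups, that of miR-130a in the second and that of miR-301a between them. KO replicate 3 had the highest 3p share of the 6 libraries for 72 of these 239 hairpins (30.1%). The hairpins did not shift together toward 3p in that library. Their log2 ratio of 3p to 5p reads there, minus the mean of the other 5 libraries, had a median of 0.04 and quartiles of -0.73 and 0.74.

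**Figure D4:**
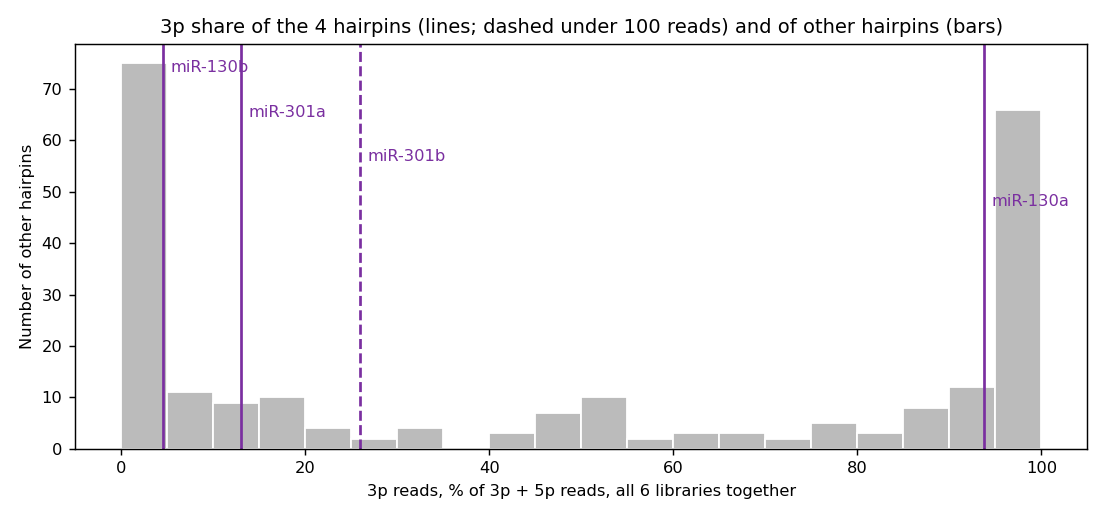
Number of other hairpins (bars, 239 with at least 100 reads) by their 3p share over all libraries, in percent, with lines at the 4 family hairpins, dashed for miR-301b with under 100 reads. miR-130b stands at 4.55%, miR-301a at 13.1%, miR-301b at 25.9% and miR-130a at 93.8%.

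The 5p products gave the family's largest counts. miR-130b-5p had 284, 188 and 79 reads in knockout and 164, 166 and 190 in wild type, or 19.4, 15.8 and 6.51 CPM in knockout and 10.7, 12.2 and 12.5 CPM in wild type. The WT libraries agreed closely, while KO replicates 1 and 2 lay above all of them and KO replicate 3 below. miR-301a-5p had 58, 37 and 19 reads in knockout and 41, 57 and 41 in wild type, again lowest in knockout replicate 3. The rarer miR-301b-5p had 12, 10 and 3 reads in knockout and 6, 4 and 5 in wild type, and it too was lowest in that library.

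KO replicate 3 held the lowest level of miR-130b-5p, miR-301a-5p and miR-301b-5p (6.51, 1.57 and 0.25 CPM) and the highest of miR-130a-3p and miR-130b-3p (3.63 and 0.99 CPM) of all 6 libraries. The other products did not follow this division: in that library miR-301b-3p had 0 reads, and miR-301a-3p (0.49 CPM) and miR-130a-5p (0.16 CPM) lay within the range of the others. The sum of the 4 5p products was 24.2, 20.1 and 8.49 CPM in knockout and 14.0, 17.1 and 15.6 CPM in wild type. The choroid plexus list was also highest in knockout replicate 3, and the summed oligodendrocyte list was lowest there (632.2 CPM against 787.0 to 973.7 CPM in the other libraries). The part of either in these levels was not tested.

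The comparison of KO with WT cortex asks whether the family differs where Fmr1 is labelled as knocked out. No member was called. In the edgeR quasi-likelihood test 541 features passed the count filter, among them miR-130a-3p and miR-130b-3p, and 0 of these 541 were called at an adjusted p under 0.05 (0%). At an unadjusted p under 0.05 there were 35 (6.47%), none of them a family product. DESeq2, run on 1182 features without the count filter, and limma-voom, run on 541, likewise called 0. They had 40 and 33 features at an unadjusted p under 0.05. The libraries of the 2 genotypes overlapped for all 4 members and all 4 5p products, where 15.7% of tested features did not overlap. Without KO replicate 3, 18 of 560 features were called, and no family product was among them.

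miR-130a-3p averaged 2.49 ± 1.05 CPM in knockout and 2.64 ± 0.61 CPM in wild type (SD, n = 3 each), which edgeR fitted as a log2 difference (KO minus WT) of -0.09 with an SE of 0.38 (95% interval -0.95 to 0.76, adjusted p = 0.943). Its sign turned without KO replicate 1 (0.18) or WT replicate 3 (0.07). miR-130b-3p averaged 0.64 ± 0.37 CPM in knockout and 0.59 ± 0.30 CPM in wild type, which edgeR fitted as a log2 difference of 0.12 with an SE of 0.61 (95% interval -1.28 to 1.53, adjusted p = 0.953), which turned to -0.28 without KO replicate 3 and -0.23 without WT replicate 3. Both intervals reach well beyond 0 on either side, so these libraries do not show that the levels are alike.

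miR-301a-3p and miR-301b-3p did not reach the count filter and were read from a fit on every feature with a read. The 13 reads of miR-301a-3p in knockout and 25 in wild type gave a log2 difference of -0.71 (95% interval -2.12 to 0.71, edgeR adjusted p = 0.793). It was negative with each library left out, from -1.06 to -0.20, the smallest without KO replicate 1. For miR-301b-3p, with 6 reads in knockout and 8 in wild type, it was -0.18 (95% interval -2.60 to 2.24, edgeR adjusted p = 0.984). That value turned positive without KO replicate 3 (0.38) or WT replicate 3 (0.61).

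Of the 5p products, miR-130b-5p averaged 13.9 ± 6.65 CPM in knockout and 11.8 ± 0.94 CPM in wild type, which edgeR fitted as a log2 difference of 0.24 (95% interval -0.60 to 1.07, edgeR adjusted p = 0.882). This result rested on single libraries: it was 0.59 (SE 0.18, unadjusted p = 0.00572, edgeR adjusted p = 0.1) without KO replicate 3 and -0.0729 without KO replicate 1. miR-301a-5p averaged 2.88 ± 1.21 and 3.19 ± 0.87 CPM (log2 fold change -0.14, 95% interval -1.01 to 0.73, edgeR adjusted p = 0.9), with values of 0.17 without KO replicate 3 and 0.12 without WT replicate 2. In the fit without a count filter, miR-301b-5p had a log2 fold change of 0.93 (95% interval -0.42 to 2.28, edgeR adjusted p = 0.793), and miR-130a-5p, on 6 reads in knockout and 8 in wild type, one of -0.18 (95% interval -2.57 to 2.21), which was 0.43 without KO replicate 1 and 0.69 without WT replicate 2. That of miR-301b-5p was positive with each library left out, from 0.67 to 1.30. Without KO replicate 3 miR-301b-5p passed the filter, at 1.30 (95% interval 0.04 to 2.56, edgeR unadjusted p = 0.0446, edgeR adjusted p = 0.268).

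**Figure D5:**
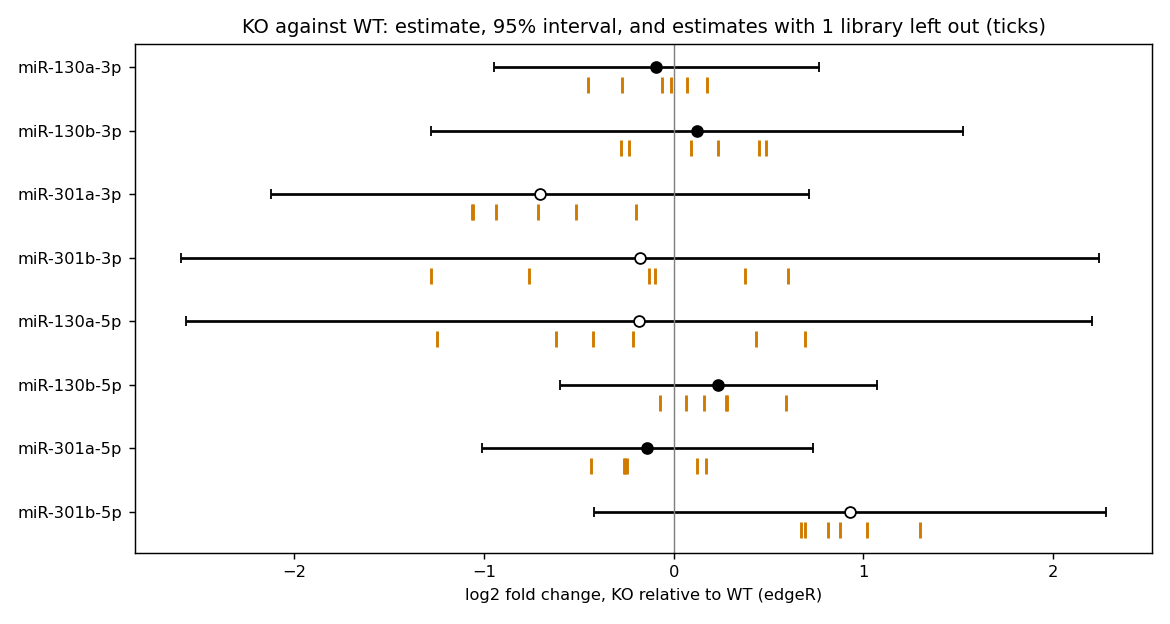
log2 fold change of KO relative to WT for the 8 products (circles, edgeR) with 95% intervals as bars, filled where the product passed the count filter and open where it was read from the fit without one, and ticks for the estimates with each library left out. All 8 intervals cross 0, and the ticks lie on both sides of 0 for all but miR-301a-3p and miR-301b-5p.

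The neighbouring hairpins of miR-130b and miR-301b gave unequal numbers of reads. Over all libraries miR-301b-5p had 0.0373 reads for each read of miR-130b-5p, and miR-301b-3p had 0.275 for each of miR-130b-3p. The log2 ratio of the 5p products, a comparison added after the values were seen, was -4.56, -4.23 and -4.72 in knockout and -4.77, -5.38 and -5.25 in wild type, so the KO libraries all lay above the WT libraries. The difference was 0.63 log2 units (-4.51 ± 0.25 in knockout and -5.13 ± 0.32 in wild type, SD, n = 3 each). By exact permutation its two-sided p was 0.1, the smallest possible, and it rests on 3 to 12 reads of miR-301b-5p in a library. For the 3p products, with 1 read added to each count, it was -0.13 (-1.75 ± 2.01 in knockout and -1.62 ± 1.80 in wild type, exact permutation p = 0.8), and 0.85 without KO replicate 3 or 0.81 without WT replicate 3.

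Other miRNAs linked to Fmr1 mRNA as candidate regulators were mostly far more abundant than the family, and none was called. Of 7 on this list, 6 passed the count filter, 2 with higher and 4 with lower values in knockout, with a median log2 fold change of -0.19 against 0.03 over all 541 features. The most abundant, miR-129-5p, an activity-linked neuronal miRNA, had 16476, 14015 and 13107 CPM in knockout and 15723, 14614 and 16673 CPM in wild type (log2 fold change -0.11, edgeR adjusted p = 0.86). miR-101a-3p had 3229, 4147 and 4658 CPM in knockout and 3067, 3661 and 2956 CPM in wild type (0.31, edgeR adjusted p = 0.749). For miR-221-3p the values were 238.1, 215.4 and 147.0 CPM in knockout and 277.8, 285.6 and 252.0 CPM in wild type (-0.44, 95% interval -0.93 to 0.05, edgeR adjusted p = 0.749), and all KO libraries lay below all WT libraries, as groups did not overlap for 15.7% of tested features. miR-19b-3p, from the miR-17-92 cluster, was nearest in level to miR-130a-3p, at 5.18 ± 2.93 CPM in knockout and 6.22 ± 1.42 CPM in wild type. The list, written from general knowledge, also holds miR-302b-3p, a miRNA of pluripotent cells, although the arm linked to Fmr1 may be the 5p product. It did not pass the filter, with 1.37, 0.17 and 0.16 CPM in knockout and 0, 0.15 and 0.066 CPM in wild type.

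The family of miR-148 and miR-152 is set beside the members because its seed holds the same bases moved by 1 position, as in these RefSeq sequences.
miR-148a-3p: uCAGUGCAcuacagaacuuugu
miR-152-3p: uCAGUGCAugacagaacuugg
miR-148a-3p had 19387, 20680 and 7120 CPM in knockout and 9497, 11312 and 12127 CPM in wild type. KO replicate 3 was the lowest library and the other KO libraries lay above all WT libraries, as for miR-130b-5p. Its log2 fold change was 0.52 (95% interval -0.29 to 1.33, edgeR adjusted p = 0.769), and 0 of 3 miRNAs on this list were called.

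The miR-17-92 cluster and its paralogs, miRNAs of dividing progenitors, served as a list for the cell type in which miR-130b was studied. Of 12, 7 passed the count filter, 2 with higher and 5 with lower values in knockout (median log2 fold change -0.21), and 0 were called. Their summed level was 207.0 to 321.3 CPM in knockout and 267.2 to 277.7 CPM in wild type. miR-25-3p had 173.9, 168.1 and 79.4 CPM in knockout and 108.7, 113.5 and 112.6 CPM in wild type, and miR-92a-3p 73.3 ± 22.8 and 84.8 ± 5.12 CPM (SD, n = 3 each). Both were lowest in knockout replicate 3.

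Lists of other cell types that the tissue could hold had 0 called members each. Endothelial and mural miRNAs summed to between 38494 and 44571 CPM in knockout and 35241 and 42580.2 CPM in wild type, erythroid miRNAs to 80.3 to 120.6 and 75.4 to 83.4 CPM, and microglia and leukocyte miRNAs to 195.4 to 219.2 and 170.7 to 180.9 CPM. All 5 tested miRNAs of the microglia and leukocyte list had higher values in knockout (median log2 fold change 0.33), all 5 tested of the choroid plexus list (0.49), all 5 of the miR-200 family (1.95), 5 of 6 endothelial and mural (0.12), 3 of 4 erythroid (0.05), 5 of 7 neuronal (0.15) and 1 of 4 oligodendrocyte miRNAs (-0.16). For the miR-200 family and the choroid plexus list the KO libraries were not alike. The miR-200 family summed to 15.7, 904.3 and 970.1 CPM in knockout and 154.2, 83.9 and 290.0 CPM in wild type. Choroid plexus miRNAs summed to 1018, 1034 and 2112 CPM in knockout and 970.2 to 1045 CPM in wild type. Of the 2 most abundant on each list, miR-143-3p of mural cells had 34541 ± 3652 CPM in knockout and 30813 ± 3564 CPM in wild type, and miR-126a-3p of endothelium 7749 ± 219.1 and 7229 ± 314.2 CPM. The erythroid miR-486a-5p had 45.2 ± 8.56 and 43.8 ± 1.86 CPM, and miR-451a had 53.2 ± 23.6 and 32.9 ± 5.88 CPM. Of the microglia and leukocyte list, miR-146a-5p had 101.3 ± 35.3 and 80.5 ± 1.93 CPM and miR-150-5p 92.1 ± 25.1 and 80.4 ± 8.40 CPM.

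The choroid plexus miRNA miR-204-5p had 765.8, 663.9 and 1621 CPM in knockout and 667.3, 683.1 and 743.3 CPM in wild type, so KO replicate 3 alone stood high, and miR-34c-5p had 352.2 ± 115.4 and 293.9 ± 12.6 CPM. The oligodendrocyte miR-219a-2-3p had 655.5 ± 129.0 and 787.0 ± 60.9 CPM, and miR-338-5p 79.3 ± 4.61 and 89.8 ± 3.43 CPM. The neuronal miR-128-3p had 97503 ± 7741 and 104439 ± 6541 CPM and miR-218-5p 14858 ± 3547 and 12413 ± 556.6 CPM. miR-200a-3p ranged from 3.62 to 520.3 CPM in knockout and from 37.2 to 141.9 CPM in wild type, and miR-200b-3p from 10.9 to 388.9 and from 39.2 to 121.2 CPM. The part of these cell types in the levels of the family was not tested.

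Over the 6 libraries the levels most like those of miR-130a-3p, among other tested miRNAs with a mean of at least 10 CPM, were those of miR-23b-3p (Pearson r = 0.859 of log2 CPM), miR-138-5p (0.842) and miR-30a-5p (0.830). For miR-130b-3p they were miR-150-5p (0.803), miR-1983 (0.769) and miR-125a-5p (0.761). With 6 points that share their libraries and scaling, and few reads of the members, these are descriptions. The rarer miR-301a-3p and miR-301b-3p did not pass the filter and were not compared in this way. By the same measure, added after the values were seen, miR-130b-5p was most like miR-3074-1-3p (0.985), miR-1964-3p (0.981) and miR-467a-5p (0.981), and miR-301a-5p most like miR-194-5p (0.953), miR-192-5p (0.946) and miR-1843b-5p (0.932). None of the miRNAs named for a 3p product was named for a 5p product.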

How the data were processed

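Small RNA from 6 cortex libraries was read from a single end after ligation of adaptors to both ends, PCR and gel size selection, per the labels' protocols. The submitters' processing notes name Bowtie, DESeq2 and mm10. Not given in the sources used here: versions, settings, miRBase release, use of strand and handling of multi-mapping reads. Read counts per mature miRNA were deposited by the authors with TPM values, per the file headers. TPM equal the count over the column total, scaled to 1000000 (largest deviation 4.95e-10) and were not used further. There were 0 columns that belonged to no sample.

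Counts were analysed with edgeR 4.0.16 in R 4.3.3: filterByExpr left 541 of 1182 features, libraries were scaled by TMM, and KO was compared with WT by the robust quasi-likelihood test with Benjamini-Hochberg adjustment over all tested features and a threshold of 0.05. The same procedure was tested on simulated counts. DESeq2 1.42.0 and limma 3.58.1 served as alternatives, as did other scaling, no count filter and each library left out. Exact permutation tests and intervals were computed with scipy 1.17.1. Summed counts were 11182888 to 15733876 per library. At this depth 3 reads, the limit taken for a count of 0, equal 0.191 to 0.268 reads for each 1000000. No pair of libraries of a genotype agreed within sampling noise (smallest chi-square over degrees of freedom 47.7).

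The log2 ratio of miR-301b-3p to miR-130b-3p was planned without a pseudocount, but 0 reads in 2 libraries leave it undefined, so 1 read was added to each count. Members below the filter were read from the fit without one. Sequences are from RefSeq on GRCm38.p6, with entries for 970 of 1182 features, and gene models from GENCODE M21. The members and lists were chosen with earlier results of these data known. Named miRNAs are the members, their 5p products, up to 2 of each list by mean CPM, and the 3 most correlated miRNAs for each member. The last part was planned for all 4 members and done for the 2 that passed the filter. Others were chosen after their values were seen.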

Additional observations from a re-analysis of the deposited data

How the results depend on the processing

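No family product was called under any alternative run. For all tested miRNAs the call count was 0 under each scaling, DESeq2, limma-voom and no count filter, and 0 to 18 with the filter and a library left out, the 18 without KO replicate 3. Without the filter it was 13 without KO replicate 1, 31 without KO replicate 2, 25 without KO replicate 3, 13 without WT replicate 3 and 0 without either other WT library. The count at an unadjusted p under 0.05, 35 in the reported edgeR fit, was 18 with total count scaling, 56 without the filter, 14 to 97 with the filter and a library left out, and 19 to 112 with a library left out and no filter. Other tools and scalings kept the sign of all 8 products. With each library left out, log2 fold changes ranged from -0.45 to 0.18 for miR-130a-3p, -0.28 to 0.49 for miR-130b-3p, -1.28 to 0.61 for miR-301b-3p, -1.25 to 0.69 for miR-130a-5p, -0.0729 to 0.59 for miR-130b-5p and -0.44 to 0.17 for miR-301a-5p. Those of miR-301a-3p stayed negative, from -1.06 to -0.20, and those of miR-301b-5p stayed positive, from 0.67 to 1.30. The difference in 3p share ranged from -1.99 to 4.47 percentage points for miR-130a, -2.36 to 3.44 for miR-130b, -7.41 to 3.75 for miR-301a and -27.4 to -2.38 for miR-301b. The KO minus WT log2 ratio of miR-301b-3p to miR-130b-3p ranged from -1.17 to 0.85. The log2 ratio of miR-130b-3p to miR-301a-3p ranged from -0.0235 to 0.72, and was -0.056 in the WT libraries alone. The cause of these shifts was not tested. No paired analysis was possible because replicate numbers follow accession order and pair no libraries. Depth limits all 4 members: no library held more than 48 reads of one.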
